A study of Mus musculus with 12 samples.

Results

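The genes described are 10 members of granulocyte colony-stimulating factor (G-CSF) and granulocyte-macrophage colony-stimulating factor (GM-CSF) receptor signalling, taken by symbol from the 11911 genes of a neutrophil RNA-seq table. They are the receptor genes Csf3r, Csf2ra, Csf2rb and Csf2rb2, the signalling genes Jak2, Stat3 and Stat5a, the feedback inhibitor gene Socs3, and the cytokine genes Csf1 and Osm. All 10 are in the table, and all 10 passed the filter used for testing, which asked for 10 or more normalised reads in 6 or more of the 12 libraries. None of the 10 was called between the LOY and the control libraries, and the most abundant of them, Csf3r, differed by a log2 fold change of -0.09 (95% interval -0.85 to 0.67). Csf3r, Stat3 and Socs3 were at their lowest in the same 3 of the 12 libraries, 1 LOY and 2 control. Genes outside the members, Stat6 and Junb among them, were also lowest in those libraries.

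G-CSF acts through the homodimeric receptor encoded by Csf3r and drives the production, survival and release of neutrophils. GM-CSF acts through an alpha chain, Csf2ra, joined to a beta chain shared with other cytokine receptors, and primes mature neutrophils. Both receptors lack kinase activity of their own and use the kinase JAK2 to phosphorylate STAT transcription factors, STAT3 chiefly downstream of G-CSF and STAT5 chiefly downstream of GM-CSF. STAT3 induces SOCS3, which binds the G-CSF receptor and JAK kinases and ends the signal.

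The neutrophils were sorted from the left ventricle of mouse hearts, and the sample titles of both groups carry the words Control BMT. There were 6 libraries of the genotype labelled LOY, short for loss of Y, with the codes KO (numbers 3, 4, 5, 10, 14 and 15), and 6 of the genotype labelled control (2, 6, 7, 8, 11 and 12). The treatment label of both groups reads control. Each library came from 800 cells positive for the leukocyte antigen CD45.2, the neutrophil antigen Ly6G and a red fluorescent protein (RFP), and negative for the macrophage receptor CD64. No source used here gives how the Y chromosome was lost, the age and sex of the mice, or whether each library was a separate mouse. The p-values therefore take the libraries as they are, and their spread may be technical. Values are normalised reads, that is a gene's reads after division by a scaling factor of the library.

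Libraries held 6767108 to 12561174 reads in the genes of the table. The 3 Y-linked marker genes of the table (Ddx3y, Eif2s3y and Uty) summed to 0 to 59.3 normalised reads in the LOY libraries and to 1032 to 1972 in the control libraries. All 14 neutrophil markers were in the table, with sums of 289294 to 720189 in LOY and 280709 to 941471 in control libraries. Ly6g itself had at most 5.82 normalised reads in LOY 3, LOY 4, LOY 10 and control 12. Markers of heart cells were also read. The 15 cardiomyocyte markers summed to 4499 to 66279 in LOY and to 4770 to 8279 in control libraries. For the 11 endothelial markers the sums were 2961 to 6499 in LOY libraries and 1181 to 4103 in control libraries. The 8 fibroblast markers summed to 5835 to 16383 in LOY libraries and 2972 to 10540 in control libraries, where Lum and Pdgfra were at 0. The 11 macrophage markers summed to 1792 to 11908 in LOY and 3024 to 9884 in control libraries, and the 5 B cell markers to 211 to 3560 in LOY and 1065 to 6535 in control libraries. Sums of the 4 red cell markers were 0.989 to 5268 in LOY (median 317) and 2.84 to 7389 in control libraries (median 4005). Of the T and NK cell markers 2 of 5 are in the table, with sums of 0 to 658 in LOY and 0 to 440 in control libraries. The part of such cells in the results was not tested. Of the eosinophil markers 1 of 5 is in the table (Epx), and of the mast cell markers 0 of 3. Fewer cells of a type and less RNA per cell cannot be told apart in such bulk libraries.

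The beta chain exists in mice as a pair of neighbouring genes, and their sequences bear on how far their reads can be told apart. Csf2rb encodes the common beta chain of the GM-CSF, IL-3 and IL-5 receptors, while Csf2rb2 encodes a beta chain that works with the IL-3 receptor alone. Both lie on chromosome 15 (GRCm38), Csf2rb2 at 78282507 to 78305721 on the minus strand and Csf2rb at 78325752 to 78353847 on the plus strand, 20.03 kb apart and pointing away from each other. Over 2628 aligned coding bases of GENCODE M21 they were 95.2% identical. Of the windows of 100 bases along the Csf2rb2 transcript, 7.20% were found unchanged in Csf2rb, and of those of 50 bases 19.0%, so reads from such stretches are uncertain in their assignment. The first 120 coding bases of each show the likeness, with the 4 differing bases in capitals:
Csf2rb2: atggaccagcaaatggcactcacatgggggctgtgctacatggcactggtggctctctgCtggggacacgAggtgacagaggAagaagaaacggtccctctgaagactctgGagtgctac
Csf2rb: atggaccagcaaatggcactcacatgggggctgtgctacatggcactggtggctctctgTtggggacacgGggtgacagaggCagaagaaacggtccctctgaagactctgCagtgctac

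The 250 bases upstream of the RefSeq start sites (build GRCm38.p6) were searched for the STAT element TTCNNNGAA, which reads the same on both strands, and for GAGGAA, a core bound by the myeloid factor PU.1, on both strands. The promoter table held 8 of the 10 members (not Csf2rb and Osm), with 9 start sites. TTCNNNGAA was found for 2 members, Socs3 and Csf2rb2, and in 7.02% of all 32841 promoters of this length. GAGGAA was found for 4 members, Csf3r, Csf2ra, Csf2rb2 and Stat5a, and in 23.3% of all promoters. The promoters of the 2 members with the STAT element are shown, since Socs3 is the textbook STAT3 target of the set. Matches are in capitals, TTCTTAGAA in Socs3, and in Csf2rb2 first TTCCTC, which is GAGGAA on the other strand, and then TTCTGAGAA. Of the Socs3 window, 77 bases lie in an exon of another GENCODE M21 transcript of Socs3 itself. Exon bases also made up 109 of the Csf3r window, its GAGGAA match among them, and 175 and 139 of the Stat5a windows. Of the Csf2ra window, 11 were exon bases. They hold its GAGGAA match at -8 to -3 from the start site and part of that at -14 to -9.
Socs3 (chr11:117969367-117969616, minus strand): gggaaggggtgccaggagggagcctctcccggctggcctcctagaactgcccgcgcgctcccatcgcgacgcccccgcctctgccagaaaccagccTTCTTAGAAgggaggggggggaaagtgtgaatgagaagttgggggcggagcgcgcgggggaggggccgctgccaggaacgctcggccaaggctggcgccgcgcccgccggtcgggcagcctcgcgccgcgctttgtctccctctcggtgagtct
Csf2rb2 (chr15:78305722-78305971, minus strand): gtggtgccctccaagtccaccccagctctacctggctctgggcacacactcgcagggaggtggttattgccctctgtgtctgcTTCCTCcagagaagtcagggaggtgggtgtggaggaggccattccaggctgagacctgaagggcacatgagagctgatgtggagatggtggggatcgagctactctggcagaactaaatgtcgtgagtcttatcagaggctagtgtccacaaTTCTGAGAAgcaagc

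Csf3r, the G-CSF receptor gene (ENSMUSG00000028859, chromosome 4, 126024550 to 126044440, plus strand), was the most abundant member, also per kilobase of exon, and took 0.178% to 0.827% of all reads of a library. Its normalised reads had a lowest, median and highest value of 15795, 47561 and 54238 in the LOY libraries, against 19628, 53868 and 61537 in the control libraries. The groups overlapped. The low values were LOY 15 (15795), control 8 (19628) and control 6 (24159), and no other library was under 35020 (LOY 10). The means were 42022 ± 14469 in LOY and 45579 ± 18679 in control libraries (SD, n = 6 each).

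Csf2ra, the alpha chain that gives the GM-CSF receptor its specificity (ENSMUSG00000059326, chromosome 19, 61223957 to 61228429, minus strand), was among the steadiest members. It ran from 2403 through a median of 3236 to 5607 normalised reads in the LOY libraries, against 2169, 3204 and 5803 in the control libraries. Its log2 fold change was -0.02 (SE 0.30, 95% interval -0.67 to 0.63). Its spread within groups was a standard deviation of 0.52 on the log2 scale, smaller than for all but 4.06% of the genes tested.

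Csf2rb (ENSMUSG00000071713) ran from 1818 through a median of 4180 to 7061 normalised reads in LOY, against 1700, 4401 and 6545 in control libraries, with a log2 fold change of 0.18 (95% interval -0.65 to 1.01). Csf2rb2 (ENSMUSG00000071714) had 25.4, 168 and 479 normalised reads in LOY, against 11.4, 238 and 873 in control libraries, with a log2 fold change of -0.38 (95% interval -2.74 to 1.98) and of -0.58 in edgeR and -0.56 in DESeq2. Its lowest library, control 8, held 9 reads. Csf2rb2 made up 0.262% (control 8) to 16.3% (control 2) of the reads of both beta chain genes, whose near-identical stretches are shown above. That share averaged 5.24% ± 5.69 in LOY and 7.96% ± 5.98 in control libraries (SD, n = 6 each), and its difference did not pass (two-sided exact permutation test, p = 0.444, adjusted p = 0.606 over 3 ratios). With 1 library left out, the difference in share, LOY minus control, ran from -4.90 percentage points without LOY 15 to -1.04 without control 2. High shares were seen in both genotypes, 16.2% in LOY 15 beside the 16.3% of control 2.

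Per kilobase of exon, the alpha chain was read more than the common beta chain in 12 of 12 libraries. The log2 ratio of Csf2ra over Csf2rb, per kilobase, was 1.13 ± 0.62 in LOY and 1.33 ± 0.71 in control libraries (SD, n = 6 each; two-sided exact permutation test, p = 0.606, adjusted p = 0.606 over 3 ratios). It ran from 0.11 in LOY 4 to 2.20 in control 7. The annotated exons of Csf2rb span 7.277 kb, those of Csf2ra 2.871 kb, and such ratios depend on which exons the cells use.

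**Figure D1:**
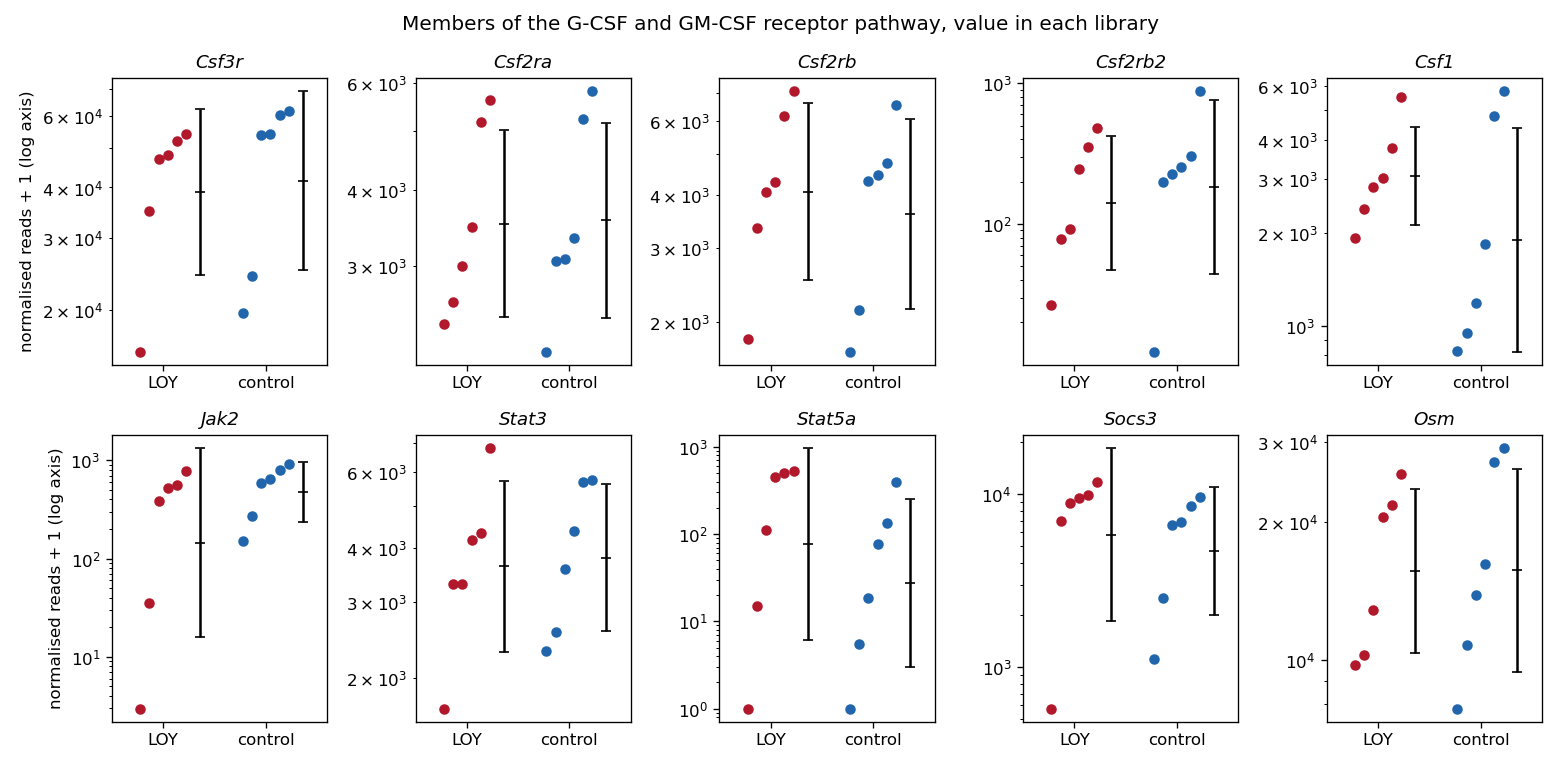
Normalised reads plus 1 (log axis) of the 10 members in each LOY (red, left) and control (blue, right) library. Black marks give the mean and SD of the log2 values of the 6 libraries of a group. The groups overlap for all 10 members, and the largest spreads are those of Jak2, Stat5a and Csf2rb2.

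Jak2, the kinase shared by both receptors (ENSMUSG00000024789, chromosome 19, 29251828 to 29313080, plus strand), was uneven across libraries. It had a lowest, median and highest value of 1.98, 454 and 782 normalised reads in LOY, against 149, 617 and 912 in control libraries. The low LOY values were LOY 5, with 2 reads, and LOY 15, at 33.98 normalised reads, while the other 4 LOY libraries lay at 385 to 782. Its log2 fold change of -1.71 (SE 1.26, 95% interval -4.40 to 0.99) was the most negative of the 10. Without LOY 5 it was -0.58, and on the recovered reads edgeR gave -0.58 and DESeq2 -0.55.

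Stat3, the main transducer of G-CSF (ENSMUSG00000004040, chromosome 11, 100885098 to 100939540, minus strand), was read evenly, at 1697, 3734 and 6784 normalised reads in LOY, against 2302, 3965 and 5741 in control libraries. Its log2 fold change was -0.07 (95% interval -0.80 to 0.66). Stat5a, a transducer of GM-CSF (ENSMUSG00000004043, chromosome 11, 100859351 to 100885169, plus strand), was the lowest member. It had 0, 280 and 531 normalised reads in LOY, against 0, 46.9 and 398 in control libraries. LOY 14 and control 8 had 0 reads, and a count of 0 allows up to 3 reads, or 3.15 and 3.80 normalised reads. In LOY 3, LOY 5 and LOY 10 it stood at 531, 450 and 497, and only control 7 of the control libraries came near, at 398. Its log2 fold change was 1.48 with an SE of 1.88 (95% interval -2.54 to 5.499), and 0.012 without LOY 5 and control 8.

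The spread of Stat5a within groups, a standard deviation of 3.43 on the log2 scale, was larger than for 80.8% of the genes tested. Stat3 and Stat5a overlap tail to tail by 72 exon bases, and without strand those reads cannot be told apart. Stat5b, the close relative of Stat5a (90.4% identical over the aligned coding bases), was steadier, with 1007 ± 404 normalised reads in LOY and 1428 ± 968 in control libraries (SD, n = 6 each). Stat5a made up 18.6% ± 17.0 of the reads of both Stat5 genes in LOY and 5.98% ± 6.19 in control libraries (SD, n = 6 each; two-sided exact permutation test, p = 0.149, adjusted p = 0.448 over 3 ratios). The share ran from 0% to 35.3% over the 12 libraries, and its difference between genotypes did not pass.

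Socs3, the feedback inhibitor (ENSMUSG00000053113, chromosome 11, 117966079 to 117970047, minus strand), had a lowest, median and highest value of 575, 9180 and 11777 normalised reads in LOY, against 1117, 6764 and 9625 in control libraries. LOY 15 was the low library at 575, while the other 5 LOY libraries lay between 6967 and 11777. Among control libraries, control 8 at 1117 and control 6 at 2510 were low, and the other 4 lay between 6641 and 9625. The log2 fold change was 0.32 (SE 0.72, 95% interval -1.23 to 1.86). Without LOY 15 it was 0.98, and without control 8 it was -0.10, so its direction rested on single libraries.

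Csf1, the ligand of the macrophage growth factor receptor (ENSMUSG00000014599, chromosome 3, 107741048 to 107760469, minus strand), was the cytokine gene with the larger difference. It ran from 1921 through 2921 to 5507 normalised reads in LOY, against 825, 1507 and 5759 in control libraries. Control 2, 6, 7 and 8 stood at 825 to 1834, below every LOY library, while control 11 and 12 reached 4778 and 5759. The log2 fold change was 0.69 (SE 0.49, 95% interval -0.36 to 1.73), positive in 12 of 12 fits with 1 library left out, at 0.45 to 1.01. On the recovered reads edgeR gave 0.33 and DESeq2 0.34. The sums of the 11 endothelial markers, of cells that the CD45.2 and Ly6G sort would remove, had medians of 4782 in LOY and 2629 in control libraries. These sums ran from 2961 to 6499 in LOY and from 1181 to 4103 in control libraries. The highest sum, in LOY 15, came with 1921 normalised reads of Csf1, and the lowest, in control 2, with 1834. Csf1 was highest in control 12 (5759), where the endothelial sum was 1514, and lowest in control 6 (825), where it was 3441. The part of such cells in the Csf1 values was not tested.

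Osm, which encodes oncostatin M, an IL-6 family cytokine and a known target of STAT5 (ENSMUSG00000058755, chromosome 11, 4236420 to 4241026, plus strand), was the more abundant cytokine gene. It ran from 9767 through 16671 to 25459 normalised reads in LOY, against 7828, 15009 and 28979 in control libraries. Its log2 fold change was -0.0043 (95% interval -0.75 to 0.74). Of the 3 libraries lowest in Socs3, LOY 15 and control 6 were high in Osm, at 25459 and 28979, while control 8 was the lowest of all 12, at 7828.

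**Figure D2:**
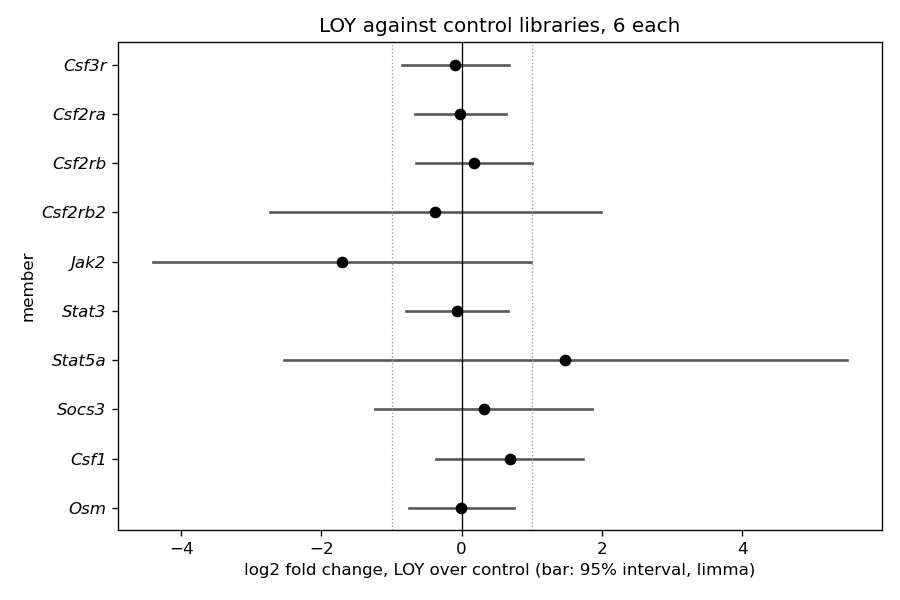
Log2 fold change of each member, LOY over control, on the log2(normalised reads + 1) scale, with its 95% interval from limma (6 libraries a group). Every interval includes 0, and those of Csf3r, Csf2ra, Stat3 and Osm lie within 1 log2 unit of it (dotted lines).

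Over the 10 members, limma called 0 at an adjusted p below 0.05, where it called 2 of all 6951 genes tested (0.0288%). No member had an unadjusted p below 0.05, against 4.37% of all genes tested, and the smallest adjusted p was 0.997 (Csf1 and Jak2). edgeR on the recovered reads also called 0 members and 0% of all genes, with 0 members at an unadjusted p below 0.05 against 1.84% of all genes. DESeq2 on those reads called 0 members against 3.12% of all genes, and 0 at an unadjusted p below 0.05 against 10.1%. In the authors' deposited table all 10 members have an adjusted p of 0.9994. For no member were the 2 groups without overlap, as they were for 0.201% of the genes tested. For 4 members, Csf3r, Csf2ra, Stat3 and Osm, the 95% interval lay within 1 log2 unit of 0, which held for 5.68% of all genes tested. For the other 6 the data do not bound the difference to that size. Log2 fold changes were positive for 4 members and negative for 6, where 50.4% of all genes tested were positive. The median of the members was -0.01, against 0.01 over all genes. Under quantile normalization Csf3r, Csf2ra, Stat3 and Osm turned positive.

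The members were ordered by level per kilobase of exon, averaged over the 12 libraries. Csf3r came first at 12136 normalised reads per kilobase, followed by Osm (7529), Socs3 (2390), Csf2ra (1304), Csf2rb (580), Csf1 (548), Stat3 (418), Jak2 (93.6), Csf2rb2 (55.1) and Stat5a (26.1). Of the 9 neighbouring steps in this order, 3 were larger than 1 SD, across libraries, of the log2 difference between the neighbours. They were Osm over Socs3, Csf2ra over Csf2rb and Stat3 over Jak2, each in 12 of 12 libraries. The other 6 steps were smaller than that SD, which is a spread between libraries and not a test of a difference. Csf3r over Osm, for 1, averaged 0.69 with an SD of 0.94 and was positive in 10 of 12 libraries.

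Across libraries, Csf3r, Stat3 and Socs3 shared a pattern that was not particular to them. The same 3 libraries, LOY 15, control 6 and control 8, were the lowest for each of these members. Outside the members, Csf1r, Stat6, Junb, Ets2 and Mxd1 were also lowest in these libraries, and the share over all genes was not counted. LOY 15, control 6 and control 8 held 2 of the 3 lowest places for Csf2ra, Csf2rb, Csf1 and Jak2, and 1 for Csf2rb2, Stat5a and Osm. They also had the highest sums of the 14 neutrophil markers, a list led by Il1b, S100a8 and S100a9, at 720189 in LOY 15, 676917 in control 6 and 941471 in control 8, while the other 9 lay between 280709 and 609375. The 10 most abundant genes took 23.4% of all reads in LOY 15 and 26.7% in control 8, and 11.5% to 18.6% in the remaining 10 libraries. Single neutrophil markers did not all follow the sums. Il1b was highest in LOY 15, control 6 and control 8, at 338546 to 342268 normalised reads. Retnlg was highest in LOY 5 (21941), and S100a8 was lower in control 6 (93744) than in LOY 4 (102879). The part of these differences in make-up in the low receptor values was not tested.

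**Figure D3:**
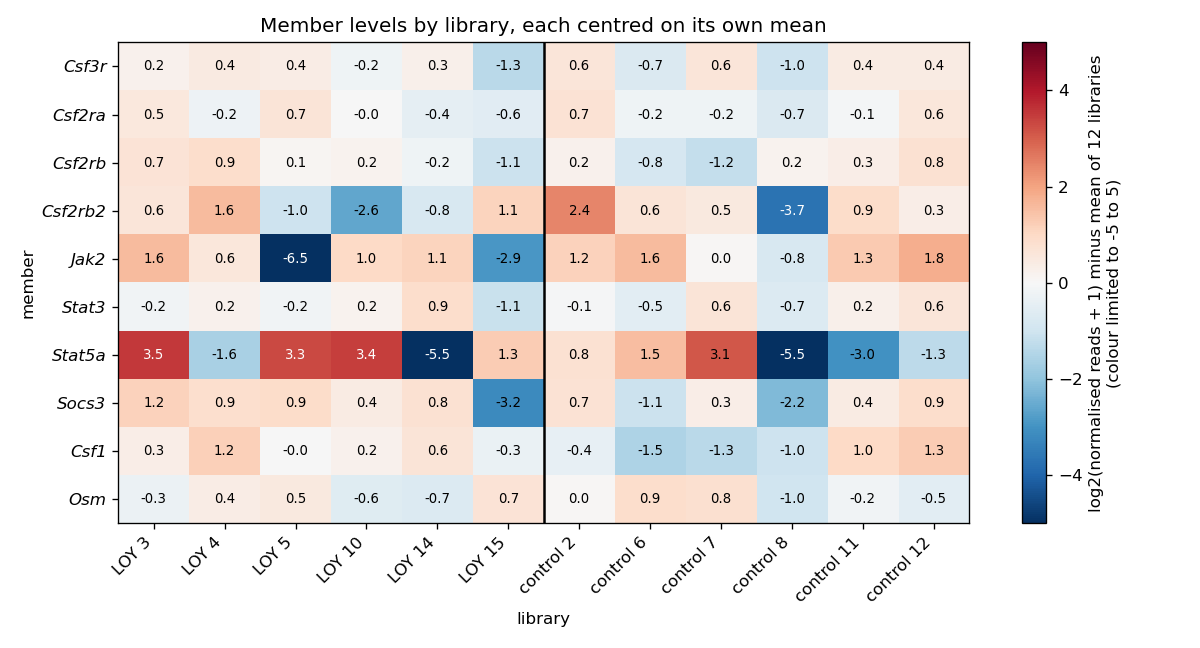
Log2(normalised reads + 1) of each member minus its mean over the 12 libraries, LOY libraries left of the line and control libraries right of it. LOY 15, control 6 and control 8 are low for Csf3r, Stat3 and Socs3 together, while Jak2 is lowest in LOY 5 and Stat5a is at 0 in LOY 14 and control 8.

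Relations between members were computed for 5 of 6 chosen pairs, since Stat5a, at 0 in 2 libraries, left its pair with Osm out. Over the 12 libraries Csf3r and Socs3 had a Pearson r of 0.93 (permutation p = 0.00090, adjusted p = 0.0045 over 5 pairs), with 0.97 in LOY and 0.96 in control libraries. Their Spearman correlation was 0.43 (permutation p = 0.167, adjusted p = 0.443) and did not pass. It was 0.60 within LOY and 0.60 within control libraries. Without LOY 15 and control 8, the libraries farthest from the median of Csf3r, r was 0.76. Over the 9 libraries other than LOY 15, control 6 and control 8 it was 0.02. That last value was added after seeing the data, and the Spearman correlation over those 9 libraries was -0.37. Leaving out the libraries lowest in the genes correlated narrows their range, which tends to weaken r but need not turn its sign. Both values were not tested and only describe the remaining 9.

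Stat3 and Socs3 had a Pearson r of 0.79 (permutation p = 0.0039, adjusted p = 0.0098) and a Spearman correlation of 0.36 (permutation p = 0.244, adjusted p = 0.443). Within LOY libraries r was 0.77 and within control libraries 0.85. The Spearman correlations within genotypes were 0.09 in LOY and 0.60 in control libraries. Pearson r was 0.66 without LOY 14 and LOY 15. Over the same 9 libraries it was -0.36, and the Spearman correlation was -0.52. Both values were not tested and have the same limit, since the 3 left out are also the lowest in Stat3 and Socs3. The receptor pairs did not pass by either measure. Pearson r was 0.46 for Csf2ra with Csf2rb (permutation p = 0.132, adjusted p = 0.220), 0.43 for Csf3r with Csf2rb (permutation p = 0.176, adjusted p = 0.220) and -0.03 for Csf2rb with Csf2rb2 (permutation p = 0.940, adjusted p = 0.940). For Csf3r with Csf2rb, r was 0.72 without control 7 and 0.19 without LOY 15. The corresponding Spearman values were 0.33, 0.29 and 0.19 (permutation p = 0.302, 0.355 and 0.558, adjusted p = 0.443, 0.443 and 0.558). Without the 2 libraries farthest from the median of the first gene these r were 0.52, 0.30 and 0.20. Within genotypes, r was 0.51 in LOY and 0.43 in control libraries for Csf2ra with Csf2rb. It was 0.83 in LOY and 0.12 in control libraries for Csf3r with Csf2rb, and 0.06 in LOY and -0.08 in control libraries for Csf2rb with Csf2rb2. The Spearman values of Csf3r with Csf2rb were 0.54 in LOY and -0.09 in control libraries.

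**Figure D4:**
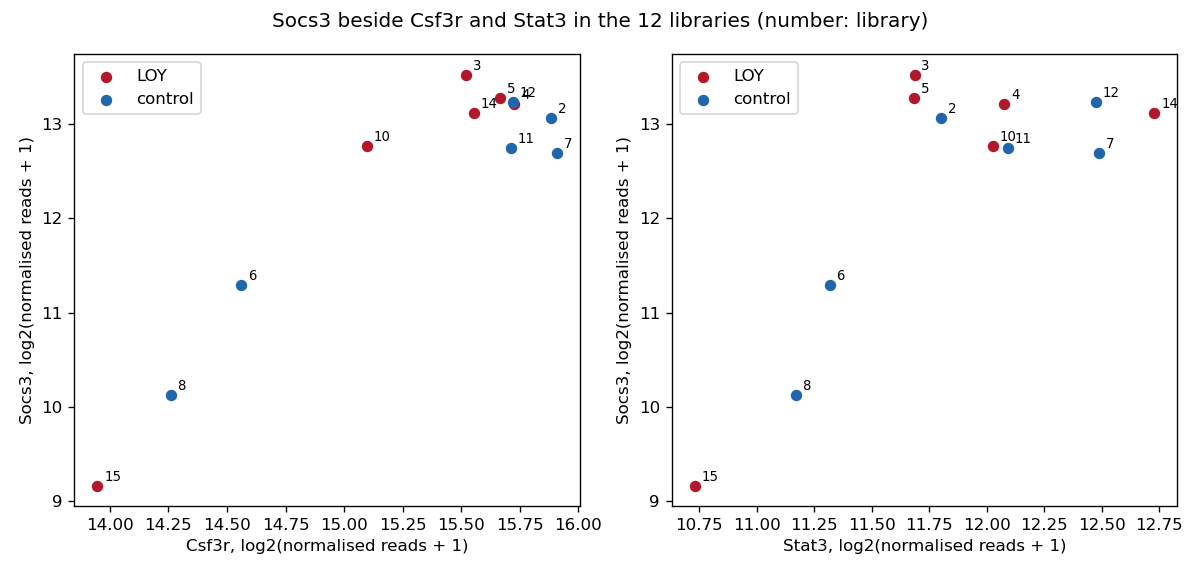
Log2(normalised reads + 1) of Socs3 against Csf3r (left) and Stat3 (right) in LOY (red) and control (blue) libraries, each marked with its number. LOY 15, control 8 and control 6 trail off to the lower left, and the other 9 libraries form a cloud in which r is 0.02 for Csf3r and -0.36 for Stat3.

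The genes whose profile over the 12 libraries was nearest to that of Csf3r were Ets2, an ETS family transcription factor, Mxd1, an antagonist of MYC activity, and Arhgef1. The root mean square difference of their centred log2 values from those of Csf3r was 0.23, 0.25 and 0.30, against a median of 2.34 over all genes tested. Mxd1 was low in the same libraries, at 8868 normalised reads in LOY 15, 15042 in control 6 and 7320 in control 8, while the other 9 lay between 24119 and 35633. Nearest to Osm were Arhgap9, the immediate early gene Fos and Prr13, at 0.30, 0.32 and 0.33, against a median of 2.40. Fos was highest in the 3 libraries of highest Osm, at 120616 normalised reads in LOY 15, 123053 in control 6 and 121317 in control 7, and it was lowest in control 11 (41730), whereas Osm was lowest in control 8.

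The rest of the pathway was taken from 4 lists of 68 genes, of which 60 are in the table and 47 were tested. None of the 47 passed in limma in either direction, and none had an unadjusted p below 0.05, against 4.37% of all genes tested. edgeR and DESeq2 on the recovered reads called 0 of them as well, with 0 of 47 at an unadjusted p below 0.05 in edgeR, against 1.84% of all genes, and 1 of 56 in DESeq2, against 10.1% of all genes. That gene was Il6st, the gp130 chain through which oncostatin M signals, named here after its values were seen. It was under the filter for limma, at 240 ± 343 normalised reads in LOY and 17.0 ± 34.5 in control libraries (SD, n = 6 each). In the authors' deposited table its adjusted p is 0.298.

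Of the other receptors and ligands, 6 were tested, 2 with a positive and 4 with a negative log2 fold change (median -0.10). Over all genes tested, 50.4% were positive. Csf1r, the receptor of the Csf1 product, had 3012 ± 1442 normalised reads in LOY and 2822 ± 1348 in control libraries (SD, n = 6 each), with a log2 fold change of -0.01. The interferon gamma receptor chain gene Ifngr1 had 1538 ± 651 in LOY and 2328 ± 1047 in control libraries (SD, n = 6 each). For Ifngr1 the log2 fold change was -0.58 with an SE of 0.38, and for Il6ra it was -0.88 with an SE of 0.79 (-0.44 in edgeR and -0.43 in DESeq2). The ligand gene Csf2 is not listed in the table. Csf3, the G-CSF gene, was above 0 in LOY 4 alone, at 247 normalised reads.

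Of 17 other kinases, STATs and adaptors, 7 were positive and 10 negative (median -0.09). Those with the most reads were Stat6, which acts downstream of IL-4, with 4463 ± 2148 in LOY and 3387 ± 1618 in control libraries, and the kinase gene Syk, with 3476 ± 932 in LOY and 4316 ± 1855 in control libraries (SD, n = 6 each). Those of smallest p were Pik3r1, a regulatory subunit of PI3-kinase (log2 fold change 1.64, SE 0.89), and Stat4 (-2.66, SE 2.00). On the recovered reads Pik3r1 stood at 1.03 in edgeR and 1.05 in DESeq2, and Stat4 at -0.56 in edgeR and -0.58 in DESeq2. Of 10 inhibitors, 5 were positive and 5 negative (median 0.01). Ptpn6, the phosphatase SHP-1, had 10609 ± 3076 in LOY and 11253 ± 4327 in control libraries (SD, n = 6 each; log2 fold change -0.02), and Ptpn1 stood at -0.43 (SE 0.31) and Sh2b3, an adaptor that restrains JAK2, at 0.83 (SE 0.65). Cish and Socs2, STAT5-induced members of the SOCS family, were under the filter. Cish was at 247 ± 451 normalised reads in LOY and 107 ± 194 in control libraries, and Socs2 at 103 ± 160 in LOY and 25.3 ± 61.1 in control libraries (SD, n = 6 each).

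Of 14 tested STAT3 and STAT5 target genes, 4 were positive and 10 negative, where 50.4% of all genes tested were positive. Their median log2 fold change was -0.36, against 0.01 over all genes tested, a difference that was not tested. Junb, an AP-1 transcription factor gene, had the most reads, at 78983 ± 27435 normalised reads in LOY and 67461 ± 25704 in control libraries (SD, n = 6 each). The survival gene Mcl1 had 8731 ± 620 in LOY and 11890 ± 4942 in control libraries (SD, n = 6 each; log2 fold change -0.33, 95% interval -0.90 to 0.23). Cebpd, a transcription factor gene of granulocyte differentiation, had the smallest p of the pathway lists (limma, adjusted p = 0.997), with a log2 fold change of -1.26 (SE 0.60, 95% interval -2.54 to 0.017). Bcl3, a nuclear regulator of NF-kB, stood at -1.61 (SE 1.19), with 7.21 normalised reads in its lowest library, LOY 15. On the recovered reads Cebpd stood at -0.72 in edgeR and -0.71 in DESeq2, and Bcl3 at -0.81 in both.

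**Figure D5:**
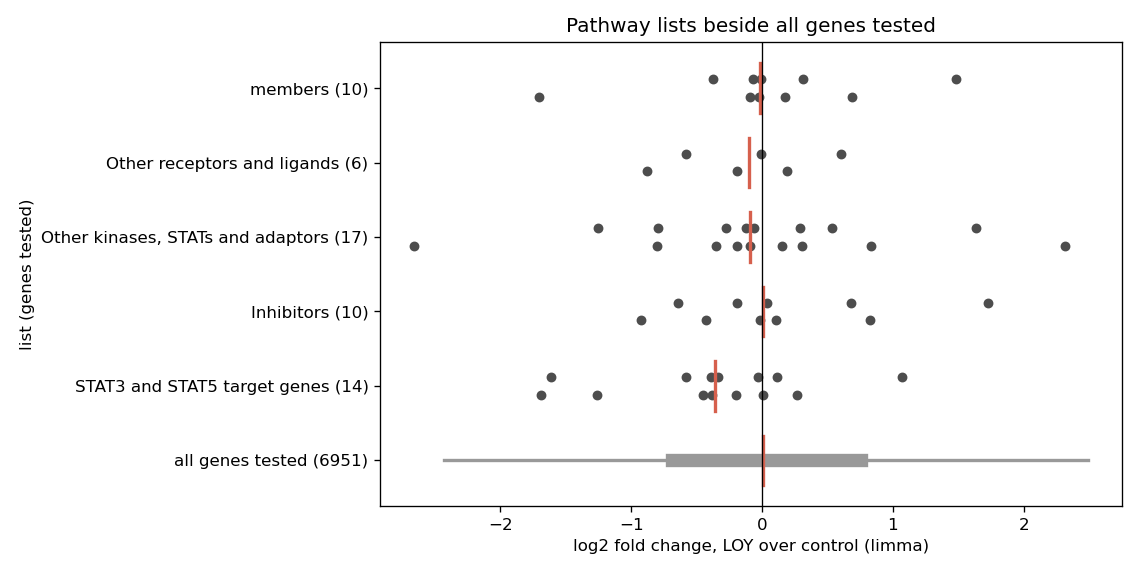
Log2 fold changes, LOY over control, of the 10 members and of the tested genes of the 4 pathway lists (points), with the median of each in red. For all 6951 genes tested the thick grey bar spans the middle 50% and the thin one the middle 90%. The members centre on -0.01 and the STAT target list on -0.36, and none of the points shown passed the test.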

How the data were processed

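The submitters' processing notes list STAR 2.5.2b, Trimmomatic 0.36, bcl2fastq 2.17 and featureCounts, with Subread 1.5.2, beside the build names mm10 and GRCm38. Per the labels' protocols, cDNA came from the SMART-Seq v4 kit and libraries from Nextera XT, which carry neither strand nor molecular identifiers. The authors deposited 1 table, whose signal columns hold read counts divided by 1 factor per library, per the file headers and the values (100% of values above 0 were whole multiples of 1 step, within 0.01 of a read). This gave the reads back. Further deposited columns hold, for each gene, the authors' log2 fold change (positive where LOY is higher), p-value and adjusted p-value. No source used here names the tool behind them. DESeq2 on the recovered reads gave the same 303 calls. Depths are sums over the genes in the table. Symbols turned into dates (17) or blank (8) were replaced from GENCODE M21, on GRCm38, which also gave coordinates and exon lengths.

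The main test was limma 3.58.1 (trend, robust) on log2(normalised reads + 1) for 6951 genes that had 10 or more normalised reads in 6 or more libraries, with Benjamini-Hochberg adjustment over all of them and a threshold of 0.05. The fit was tested on simulated data, with a spread between libraries capped well below that of many genes here (median within-group standard deviation 2.37 on the log2 scale). That test therefore does not show the power of the fit for genes as uneven as Jak2 and Stat5a. edgeR 4.0.16 and DESeq2 1.42.0 were run on the recovered reads as alternatives. Fold changes are on this log2 scale, and for genes with uneven libraries they can be larger than those of the count models. Relations used 100000 resamples (scipy 1.17.1, two-sided), ratios all assignments of the 12 libraries. The ratios were added after seeing the values, as was the rule that a largest gap over 0.5 of the range marks separate clusters. Members and lists were chosen with earlier results of these data known. Named genes are the 10 members, per pathway list the 2 of smallest p and the 2 of highest level, and the 3 profiles nearest to each of the 2 most abundant members. Outside that rule, Il6st, Stat5b, Cish, Socs2, Csf3 and Csf2 were named after their values were seen. No 2 libraries of a group agreed within sampling noise (lowest chi-square per degree of freedom 177). The limit for a count of 0 covers counting error only.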

Additional observations from a re-analysis of the deposited data

Results flagged for a closer look

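Of the 20 groups of 6 values looked at (10 members, 2 genotypes), 3 held a library that stood apart from the others by Dixon's test at the 95% level on log2(normalised reads + 1), which chance gives in about 1 of 20 groups. The gap to the nearest library over the group's range, on that log2 scale, was 0.645 for Csf3r, 0.826 for Socs3 and 0.653 for Csf2rb2, each above the critical value for 6 samples. Csf3r was low in LOY 15, at 15795 normalised reads, against 35020 to 54238 in the other 5 LOY libraries. Socs3 was low in the same library, at 575, against 6967 to 11777. Csf2rb2 was low in control 8, at 11.4 normalised reads, against 199 to 873 in the other 5 control libraries. LOY 15 had 720189 and control 8 had 941471 normalised reads of the 14 neutrophil markers, the highest of their groups. The part of library make-up in these values was not tested.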

How the results depend on the processing

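No paired analysis was possible because the groups share no library number. Under pseudocounts of 0.5 and 5, no filter, a mean of at least 50, quantile normalization, edgeR, DESeq2, each library left out in turn and, added after seeing the data, array weights and a fit without LOY 5 and control 8 (the lowest array weight of each group), limma or the named tool called 0 members and 0 pathway genes. A log2 fold change of at least 1 as a further condition gave 0 for both. The smallest adjusted p of a member was 0.916. In 184 of 210 such fits the sign of a member was that of the main fit. Under quantile normalization it turned for Csf3r (0.018), Csf2ra (0.058), Stat3 (0.0077) and Osm (0.041), and without LOY 5 and control 8 for Socs3 (-0.25). With 1 library left out, the log2 fold change ran from -0.31 to 0.17 for Csf3r, -0.16 to 0.12 for Csf2ra, -0.039 to 0.41 for Csf2rb, -1.15 to 0.11 for Csf2rb2, 0.45 to 1.01 for Csf1, -2.19 to -0.58 for Jak2, -0.25 to 0.15 for Stat3, 0.52 to 2.73 for Stat5a, -0.097 to 0.98 for Socs3 and -0.20 to 0.17 for Osm. For the ratio of Csf2ra over Csf2rb the difference, LOY minus control, ran from -0.39 to 0.0064. Without LOY 15, control 6 and control 8, a choice added after seeing the data that narrows the range of the genes correlated, r was 0.022 for Csf3r with Socs3, -0.36 for Stat3 with Socs3 and -0.21 for Csf3r with Csf2rb. With 1 library left out, r of Csf3r with Socs3 stayed between 0.88 and 0.95 and that of Stat3 with Socs3 between 0.63 and 0.84. For Csf3r with Csf2rb, r ran from 0.19 to 0.72, and for the share of Csf2rb2 the difference ran from -4.90 to -1.04 percentage points. Stat5a, Jak2 and Csf2rb2 had 0 to 9 reads in their lowest library. Those libraries held 7077234 (LOY 14), 7176250 (control 8) and 7760841 (LOY 5) reads in all. LOY 4, the library with the fewest reads (6767108), had 12 Stat5a, 331 Jak2 and 412 Csf2rb2 reads. The part of depth in these low values was not tested.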
